A study of Homo sapiens with 6 samples.

Results

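A set of 10 mucosal defence genes was followed in xenografts of the human liver cancer cell line MHCC97L: DEFB1, DEFB4A, PIGR, SLPI, PI3, LTF, LYZ, NOS2, DUOX2 and DUOXA2. These genes and the further lists below were chosen by name, with earlier results of these data known. Their shares beside those of all genes tested are therefore descriptive and no independent test. All 10 member symbols were found, each on 1 row, among the 58828 symbols of the expression tables. The data were 6 RNA sequencing libraries, 3 from xenografts given recombinant human lumican (rhLUM A, B and C) and 3 from controls (Ctrl A, B and C). Lumican is a secreted proteoglycan of the extracellular matrix. All libraries come from xenografts of the same line. The sources used here do not state the dose, route and duration of rhLUM, what the controls received or the host strain. They do not say either that replicate libraries were made from different tumours, so p-values measure only the spread between these libraries, which may be technical.

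Wet epithelia defend their surface with secreted proteins and with enzymes that make reactive oxygen or nitric oxide. Defensins and lysozyme attack microbes directly, antiproteases of the whey acidic protein (WAP) family restrain neutrophil enzymes, and the polymeric immunoglobulin receptor carries antibody across the cell. Many of these genes are switched on by inflammatory cytokines acting through NF-kB and C/EBP factors, while DEFB1 is expressed by many epithelia without such a stimulus. Bile duct epithelium in the liver shares parts of this programme.

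Expression was deposited as TPM, a transcript level corrected for transcript length and scaled to a common sum of about 1000000 TPM per library. TPM keeps no depth, so the number of reads behind each value is unknown. Differences were tested with limma on log2(TPM + 1) over all 14878 genes averaging 1 TPM or more, and genes with an adjusted p under 0.05 were called. A log2 fold change is rhLUM minus Ctrl and understates the change of low genes. Of the 10 genes, 8 passed the filter on low values, 7 of them were lower with rhLUM and 1, LYZ, was higher. Among all genes tested 22.3% were lower and 44.2% were higher, or 30.7% and 34.2% after median-of-ratios scaling of the TPM. DEFB4A passed the filter through the Ctrl libraries alone, so it had to differ. LTF and NOS2 did not pass and were not tested. The 3 rhLUM libraries lay below the 3 Ctrl libraries for the same 7 genes, as they did for 24.3% of all genes tested, and above them for LYZ, as for 46.8% of all genes tested. Without DEFB4A, 6 of the 7 genes above 0 in every library were lower, and their median log2 fold change was -2.25, against 0.16 over all genes tested. The mitochondrial share of TPM was 14.3% to 14.5% in rhLUM and 20.5% to 20.7% in Ctrl. Rescaling the TPM without mitochondrial genes left the members' counts at 7 lower and 1 higher. In bulk tumours, fewer cells of a type and less RNA per cell cannot be told apart.

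**Figure D1:**
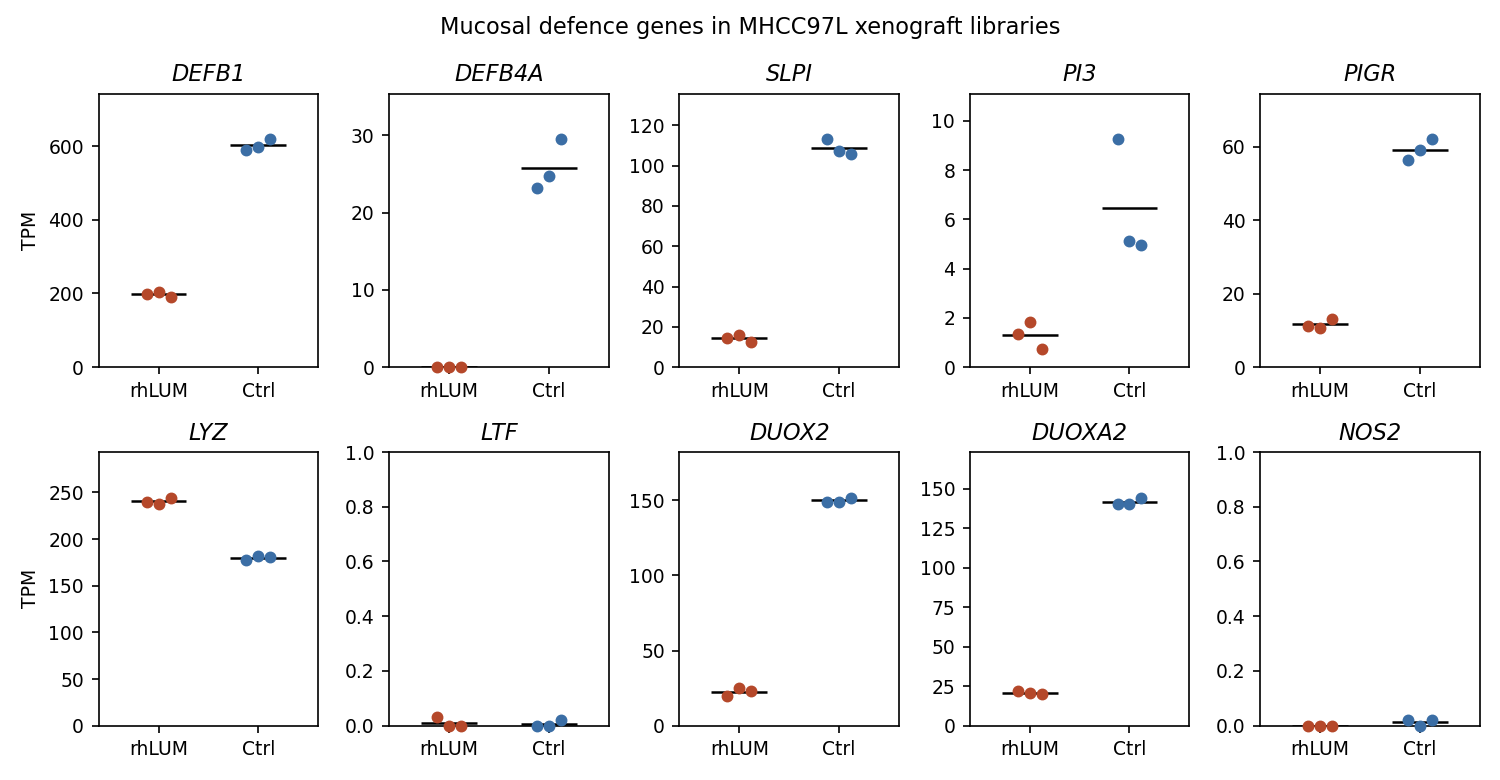
Level of each gene in TPM (vertical axis, linear, from 0, with its own scale in each panel) in the 3 rhLUM and the 3 Ctrl libraries. Points are libraries and bars are group means. LYZ is the one gene with rhLUM above Ctrl, while LTF and NOS2 are near 0 in both groups.

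The defensins are small cationic peptides that damage microbial membranes. DEFB1, a protein-coding gene of chromosome 8 (6870575 to 6878022 in GRCh38, minus strand), encodes the constitutive beta-defensin of epithelia. It stood at 198.64, 205.1 and 189.54 TPM in rhLUM A, B and C, against 590.57, 597.17 and 619.01 TPM in Ctrl A, B and C. The groups were far apart compared with their spread, which was 3.95% of the mean in rhLUM and 2.47% in Ctrl. The mean level was 3.05-fold lower in rhLUM, a log2 fold change of -1.60 (SE 0.034, limma adjusted p = 1.06e-07). DEFB1 remained well expressed, with the 2nd highest level of the 10 genes in rhLUM and the highest in Ctrl.

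DEFB4A, on the same chromosome at 7894629 to 7896711 (plus strand, protein coding), encodes an inducible beta-defensin. It was listed at 0 in all 3 rhLUM libraries, against 23.2, 24.75 and 29.51 TPM in Ctrl A, B and C. With rhLUM at 0 no fold is given, and since the gene passed the filter through Ctrl alone, no p is given either. A near-identical copy, DEFB4B, was listed at 0 in all 6 libraries. Of the 230 windows of 151 bases, the read length, in the longest coding transcript of DEFB4A, 45.2% also occur in DEFB4B. Reads of either copy could therefore stand under DEFB4A. The neighbouring beta-defensin pair DEFB103A and DEFB103B, also copies of each other, was listed at the same values, 0.2, 1.27 and 0.44 TPM in rhLUM and 1.15, 0.66 and 0.86 TPM in Ctrl. None of 12 widely used genes looked at after the data were seen, such as TBP, which encodes the TATA-binding protein, was at 0, and their lowest value was 10.74 TPM.

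The WAP-domain antiproteases SLPI and PI3 inhibit neutrophil elastase and also kill microbes. Their genes lie in one cluster on chromosome 20, SLPI at 45252239 to 45254564 (minus strand) and PI3 at 45174876 to 45176544 (plus strand), 75695 bases apart and both protein coding. SLPI, the secretory leukocyte protease inhibitor, stood at 14.48, 16.05 and 12.52 TPM in rhLUM A, B and C, against 113.12, 107.43 and 105.74 TPM in Ctrl A, B and C. The highest rhLUM library was far below the lowest Ctrl library. Its mean level was 7.58-fold lower in rhLUM, with a log2 fold change of -2.84 (SE 0.083, limma adjusted p = 3.96e-07). Of all genes tested, 58 had a lower log2 fold change than SLPI.

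PI3, which encodes elafin, had the lowest Ctrl level of the 8 defence genes that were tested and the widest spread relative to its mean. It stood at 1.34, 1.82 and 0.75 TPM in rhLUM A, B and C, against 9.26, 5.13 and 4.96 TPM in Ctrl A, B and C. Ctrl A was well above the other Ctrl libraries, yet the groups did not overlap. Limma gave a log2 fold change of -1.67 (SE 0.262, 95% interval -2.29 to -1.05, adjusted p = 0.00104). SLPI exceeded PI3 in every library, by 8.82 to 16.7 times in rhLUM and 12.2 to 21.3 times in Ctrl. The ranges of this ratio of TPM levels overlapped.

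PIGR, a protein-coding gene of chromosome 1 (206928518 to 206946466, minus strand), encodes the polymeric immunoglobulin receptor, which binds dimeric IgA and is released with it as secretory component. It stood at 11.33, 10.7 and 13.11 TPM in rhLUM A, B and C, against 56.45, 59.15 and 62.11 TPM in Ctrl A, B and C. Every rhLUM library was well below every Ctrl library. The mean level was 5.06-fold lower in rhLUM, a log2 fold change of -2.25 (SE 0.077, limma adjusted p = 7.44e-07). Promoters were matched only for PIGR, LTF, DUOX2 and DUOXA2, and that of LTF, which was not tested, is not shown. The PIGR promoter shown is the stretch of 250 bases before the RefSeq start (GRCh38.p14, chr1:206946467-206946716, minus strand). Capitals mark matches to the E-box, CANNTG, the site of basic helix-loop-helix factors.
PIGR: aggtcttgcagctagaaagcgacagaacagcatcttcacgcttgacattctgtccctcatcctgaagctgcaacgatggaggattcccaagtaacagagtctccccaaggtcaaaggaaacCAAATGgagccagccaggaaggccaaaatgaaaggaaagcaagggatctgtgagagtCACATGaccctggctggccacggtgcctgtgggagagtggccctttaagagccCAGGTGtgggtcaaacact
The 3 matches begin 129, 72 and 19 bases before the start. At least 1 match on either strand was held by 68.7% of 35116 RefSeq promoter windows of 300 bases, so an E-box is common. No match to the NF-kB, C/EBP (TTGCNNAA), STAT (TTCNNNGAA) or AP-1 (TGANTCA) motif was found in these 250 bases on either strand.

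LYZ, a protein-coding gene of chromosome 12 (69348341 to 69354234, plus strand), encodes lysozyme, which cuts the bacterial cell wall and is made by macrophages and by many glands. It was the member that rose, with 239.82, 237.84 and 244.36 TPM in rhLUM A, B and C, against 177.86, 181.76 and 180.92 TPM in Ctrl A, B and C. The groups were tight and did not overlap. The mean level was 1.34 times that of Ctrl, a log2 fold change of 0.42 (SE 0.022, limma adjusted p = 4.82e-06). This is a modest rise among all genes, since 4793 genes tested had a higher log2 fold change. Dividing the TPM by median-of-ratios size factors moved the median of all genes by -0.15 and gave LYZ 0.25.

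LTF, on chromosome 3 (minus strand), encodes lactoferrin, the iron-binding protein of milk, secretions and neutrophil granules. It was listed at 0.03, 0 and 0 TPM in rhLUM A, B and C, against 0, 0 and 0.02 TPM in Ctrl A, B and C, and so was at or near 0 in both groups.

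DUOX2, the dual oxidase that releases hydrogen peroxide at the surface of mucosal epithelia and of the thyroid, and DUOXA2, the partner that brings it out of the endoplasmic reticulum, are neighbours on chromosome 15. DUOX2 spans 45092650 to 45114344 on the minus strand and DUOXA2 spans 45114321 to 45118421 on the plus strand (GENCODE 29, both protein coding). They are transcribed away from each other and overlap by 24 bases at their starts. RefSeq places the 2 starts 154 bases apart. The 153 bases between those starts (GRCh38.p14, chr15:45114173-45114325, plus strand) are shown because promoters of both genes were matched. Capitals mark a C/EBP match (TTGCNNAA) and a TATA box (TATAAA).
DUOX2-DUOXA2: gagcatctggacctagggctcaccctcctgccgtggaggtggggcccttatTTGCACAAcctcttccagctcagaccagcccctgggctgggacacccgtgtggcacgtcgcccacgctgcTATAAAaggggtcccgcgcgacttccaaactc
DUOX2 starts to the left of this stretch and DUOXA2 to the right. The TATA box begins 32 bases before the DUOXA2 start and the C/EBP match begins 102 bases before it. On either strand a C/EBP match was found in 10.5% of all promoter windows and a TATA box in 11.5%. An E-box (CATCTG) beginning 150 bases before the DUOXA2 start is left in lower case. No match to the NF-kB, STAT or AP-1 motif was found in these 153 bases. Such matches describe letters only and were not tested as sites.

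DUOX2 stood at 19.45, 24.89 and 23.23 TPM in rhLUM A, B and C, against 148.69, 148.96 and 151.7 TPM in Ctrl A, B and C. DUOXA2 stood at 21.79, 20.93 and 20.11 TPM in rhLUM A, B and C, against 140.5, 140.36 and 144.32 TPM in Ctrl A, B and C. The oxidase and its partner were thus at nearly the same level in each group, and all rhLUM libraries lay far below all Ctrl libraries. In limma the log2 fold change of DUOX2 was -2.69 (SE 0.082, adjusted p = 4.6e-07). For DUOXA2 it was -2.70 (SE 0.039, limma adjusted p = 2.55e-08). The ratio of DUOX2 to DUOXA2 levels was 0.89, 1.19 and 1.16 in rhLUM, against 1.06, 1.06 and 1.05 in Ctrl. In rhLUM the order of the pair turned in library A, so the 2 levels did not differ beyond their spread there. In Ctrl, DUOX2 was above DUOXA2 in every library.

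The related pair DUOX1 and DUOXA1 lies next to them in the same head-to-head arrangement and was expressed far less. DUOX1 stood at 0.35, 0.22 and 0.85 TPM in rhLUM A, B and C, against 2.82, 2.31 and 2.68 TPM in Ctrl A, B and C. It was also lower, with a log2 fold change of -1.31 (limma adjusted p = 0.000815), but passed the filter only through Ctrl. DUOXA1 had 0.30, 0.13 and 0.15 TPM in rhLUM, against 0.58, 0.76 and 0.39 TPM in Ctrl, and was not tested. Some reads of one gene could stand under another here: 2.65% of the windows of DUOX2 at the read length also occur in DUOX1, DUOXA1 overlaps DUOXA2 by 1055 bases, and whether reads were counted by strand is not stated. Apart from DUOX2 and DEFB4A, no window of a member's longest coding transcript was shared with another gene.

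**Figure D2:**
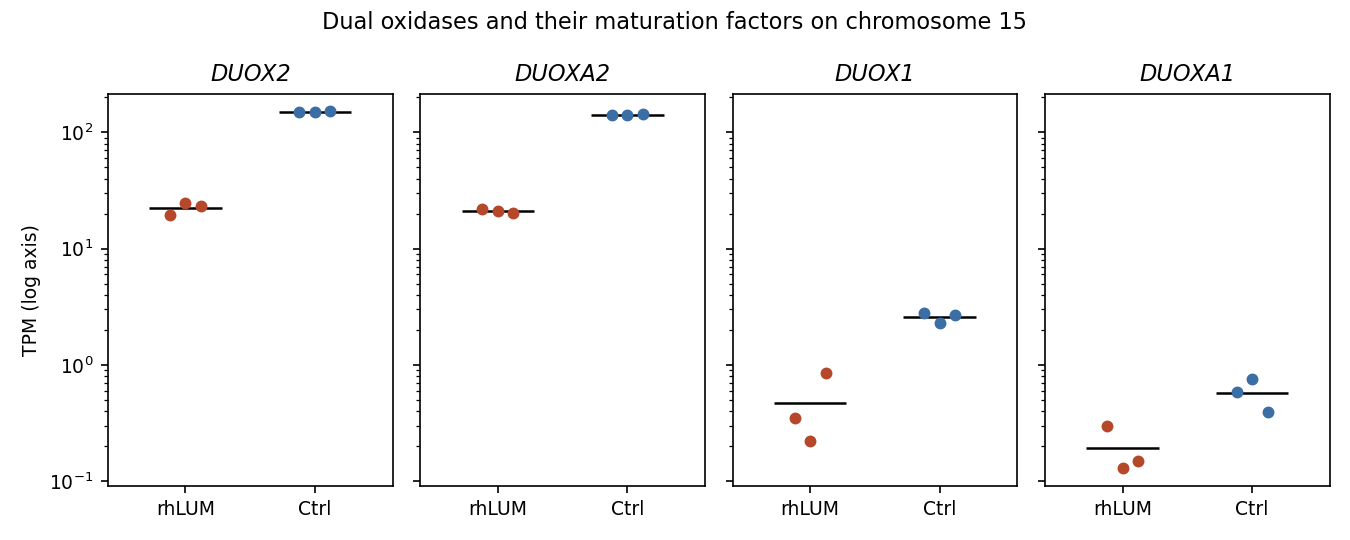
Levels of the dual oxidases DUOX2 and DUOX1 and their maturation factors DUOXA2 and DUOXA1 in TPM (log axis) in the 3 rhLUM and the 3 Ctrl libraries, with points for libraries and bars for group means. The rhLUM points lie below the Ctrl points for all 4 genes, and DUOX2 and DUOXA2 sit at like levels within each group.

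NOS2, on chromosome 17 (minus strand), encodes inducible nitric oxide synthase, which makes nitric oxide from arginine. It was listed at 0 in all 3 rhLUM libraries, against 0.02, 0 and 0.02 TPM in Ctrl A, B and C, and so was at or near 0 in both groups.

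The summed level of the 10 genes was 507, 517 and 504 TPM in rhLUM A, B and C, against 1259.7, 1265 and 1298 TPM in Ctrl A, B and C. Its make-up differed between the groups. LYZ made up 46.0% to 48.5% of the sum in rhLUM and 13.9% to 14.4% in Ctrl. DEFB1 made up 37.6% to 39.6% in rhLUM and 46.9% to 47.7% in Ctrl. In rhLUM the order of levels was LYZ, DEFB1, DUOX2, DUOXA2, SLPI, PIGR and PI3, followed by the 3 genes at or near 0. The ranges overlapped between DUOX2 and DUOXA2 and between SLPI and PIGR. In Ctrl the order was DEFB1, LYZ, DUOX2, DUOXA2, SLPI, PIGR, DEFB4A and PI3, with no overlap between neighbours, and NOS2 and LTF at or near 0. The order of level and the order of change differed. SLPI, DUOXA2 and DUOX2 had the lowest log2 fold changes of the genes above 0 in every library, and DEFB1, with the highest Ctrl level, had the log2 fold change nearest to 0 of those that fell, within the interval of PI3. The mean level fell 4.95-fold for PI3 and 3.05-fold for DEFB1. With 0.1 instead of 1 TPM added before the log, the log2 fold changes were -2.24 for PI3 and -1.61 for DEFB1.

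**Figure D3:**
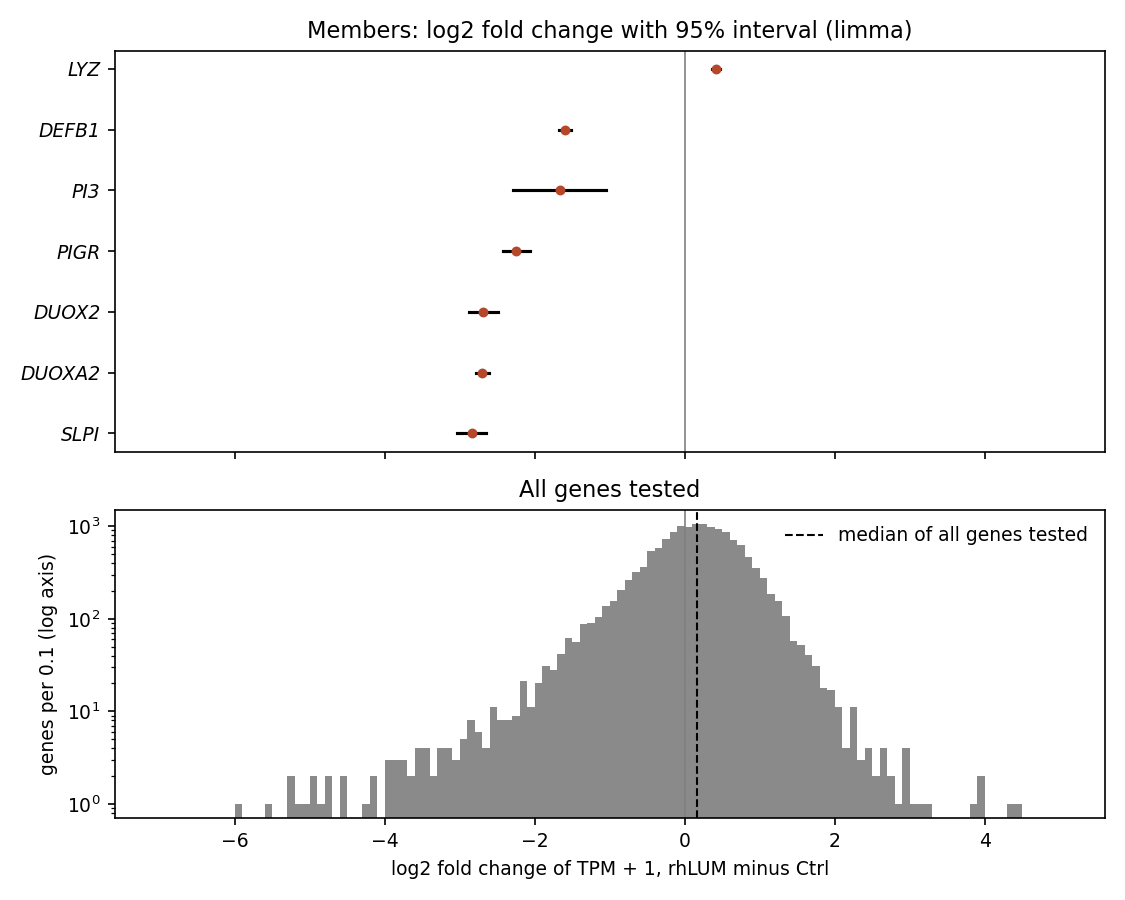
Top, log2 fold change of TPM + 1 (rhLUM minus Ctrl) of the 7 genes above 0 in every library, with points for estimates and lines for 95% intervals from limma. Bottom, the same quantity for all 14878 genes tested (number of genes per 0.1, log axis). The 6 genes that fell lie between -2.84 and -1.60, and LYZ lies at 0.42, against a median of 0.16 for all genes.

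Each of the genes tested was set beside the 1 other tested gene whose log2 values over the 6 libraries, centred on the gene's mean, were closest to its own. The measure of likeness was the root mean square difference. DUOXA2 was closest to PDZK1IP1 (0.039), a small membrane protein of epithelia, which stood at 23.69, 24.55 and 22.88 TPM in rhLUM and 159.22, 152.69 and 157.27 TPM in Ctrl. DEFB1 was closest to ZFP36 (0.039), whose product destabilises cytokine mRNAs, PIGR to CFI (0.083), complement factor I, and SLPI to WISP1 (0.053), a matricellular protein. DUOX2 was closest to GBP5 (0.086), an interferon-induced GTPase, and DEFB4A to IL1B (0.141), an inflammatory cytokine. GBP5 stood at 0.09, 0.33 and 0.45 TPM in rhLUM and 6.38, 6.92 and 7.01 TPM in Ctrl, and passed the filter only through Ctrl. Its mean level was 23.3-fold lower in rhLUM, against 6.65-fold for DUOX2. The 1 TPM added before the log shrinks the change of such low genes, so this likeness is not one of folds. LYZ was closest to RPS3A (0.009), a ribosomal protein, and PI3 to NPIPB3 (0.199), of a multicopy family. With 3 libraries in each group, such likeness mainly reflects the size of the group difference.

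Of 39 other antimicrobial proteins, 19 were listed at 0 in all 6 libraries, among them CAMP, the cathelicidin, and the Paneth cell defensins DEFA5 and DEFA6. Of the 6 that were tested, 5 were lower with rhLUM (83.3%, against 22.3% of all genes tested) and 1 was higher, with a median log2 fold change of -0.60. LCN2, the siderophore-binding lipocalin, stood at 42.47, 38.91 and 40.26 TPM in rhLUM, against 1443.46, 1397.84 and 1428.89 TPM in Ctrl, a log2 fold change of -5.10 (limma adjusted p = 1.58e-09). BPIFB1, a secreted protein of the bactericidal/permeability-increasing family, had a log2 fold change of -1.86. ANG, angiogenin, had -0.60, and LEAP2, a liver-expressed peptide, had -0.59. The gene that rose, LYPD8, which keeps bacteria off the colonic epithelium in mice, had a log2 fold change of 1.17 and passed the filter only through rhLUM. It is named after its values were seen. Without rhLUM A or without rhLUM C it no longer passed the filter, so no gene of this list was called higher, and with no filter 4 were.

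Of 19 other antiproteases, 12 were tested, 8 were lower (66.7%, against 22.3% of all genes tested) and 1, CST3, was higher, with a median log2 fold change of -0.95. The lower ones include WFDC2, another WAP-domain protein, which passed the filter only through Ctrl (0.29, 1.11 and 0.53 TPM in rhLUM, against 3.25, 4.58 and 2.07 TPM in Ctrl) and so had to differ. SPINK1, the secretory trypsin inhibitor, stood at 31.24, 33.48 and 31.34 TPM in rhLUM, against 478.53, 509.86 and 498.25 TPM in Ctrl, a log2 fold change of -3.91 (limma adjusted p = 5.65e-09). SERPINA3, alpha-1-antichymotrypsin, had -3.66, the cathepsin inhibitor CSTB had -1.24 and SERPINA1, which inhibits neutrophil elastase as SLPI does, had -0.87. CST3, cystatin C, had a log2 fold change of 0.32 and is named after its values were seen. No tested inhibitor of the list other than SPINK1 and SERPINA3 had a lower log2 fold change than SLPI.

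Among 29 further oxidase and nitric oxide genes, 20 were tested, 9 were lower (45.0%, DUOX1 included) and 6 were higher (30.0%). Over all genes tested 22.3% were lower and 44.2% were higher. The median log2 fold change of the list was -0.15. ASS1, which makes the precursor from which arginine is rebuilt, stood at 14.2, 14.62 and 15.55 TPM in rhLUM, against 131.66, 121.62 and 125.94 TPM in Ctrl, a log2 fold change of -3.01 (limma adjusted p = 3.32e-08). The small GTPases RAC2 and RAC1, which activate NADPH oxidases, had -1.82 and -0.67. SLC7A1, a transporter of arginine, rose with a log2 fold change of 1.19.

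A list of 14 genes of antibody transport also held CCL28, TNFSF13 and TNFSF13B, which encode secreted signals and not parts of transport. Of the 14 genes, 11 were tested. Among these, 3 were lower (27.3%) and 6 were higher (54.5%, CCL28 included), near the 22.3% and 44.2% of all genes tested. Their median log2 fold change was 0.42. MYO5B, the motor of recycling endosomes, stood at 53.63, 54.31 and 55.92 TPM in rhLUM, against 27.27, 26.17 and 25.02 TPM in Ctrl, a log2 fold change of 1.04 (limma adjusted p = 1.73e-06). YES1, a kinase that acts in transcytosis of the receptor in mice, had 0.94, the recycling GTPase RAB11A had 0.55 and AP1M2, a subunit of an epithelial sorting adaptor, had 0.42. The lower genes were MAL2 (-1.01), a membrane protein of transcytosis, RAB17 (-0.59), an epithelial trafficking GTPase, and FCGRT (-0.27), the neonatal IgG receptor. They are named after their values were seen, and MAL2 passed the filter only through Ctrl. JCHAIN, which joins dimeric IgA, was at 0.1, 0 and 0 TPM in rhLUM and at 0 in all Ctrl libraries.

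A list of 34 genes held receptors, ligands and regulators of the signals that induce such genes, whether they promote or restrain those signals. Of these, 26 were tested, 11 were lower (42.3%) and 8 were higher (30.8%). Over all genes tested 22.3% were lower and 44.2% were higher. The median log2 fold change of the list was 0.01. The 4 genes with the smallest p were all lower. CEBPD, a C/EBP factor of the acute phase, stood at 22.62, 18.3 and 19.53 TPM in rhLUM, against 80.31, 77.64 and 83.16 TPM in Ctrl, a log2 fold change of -1.95 (limma adjusted p = 1.28e-06). ZC3H12A, an RNase that cuts inflammatory mRNAs, had -1.82, NFKBIZ, a nuclear co-factor of NF-kB, had -1.58 and CEBPB had -0.96. Receptors of the same list are named after their values were seen. Of those that were called, all but NOD1 rose. TNFRSF1A, a TNF receptor, had a log2 fold change of 0.59, TLR4 had 0.92 and IL22RA1, a chain of the IL-22 receptor, had 0.54. The IL-17 receptor subunits IL17RA and IL17RE rose, with log2 fold changes of 0.47 and 0.58, while their relatives IL17RB (0.24) and IL17RC (0.17) were not called. IL1RL2, the receptor of IL-36 cytokines, rose with 1.35. IL1R1, the IL-1 receptor (-0.11), and IL10RB, a chain of the IL-10 and IL-22 receptors (0.02), were not called, and NOD1, a sensor of bacterial cell wall fragments, fell with -0.52. IL36G, a ligand of IL1RL2, had -1.63 and passed the filter only through Ctrl. Of the NF-kB subunits, also named after their values were seen, NFKB1 rose with 0.58, RELB fell with -0.67 and RELA (0.01) was not called.

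**Figure D4:**
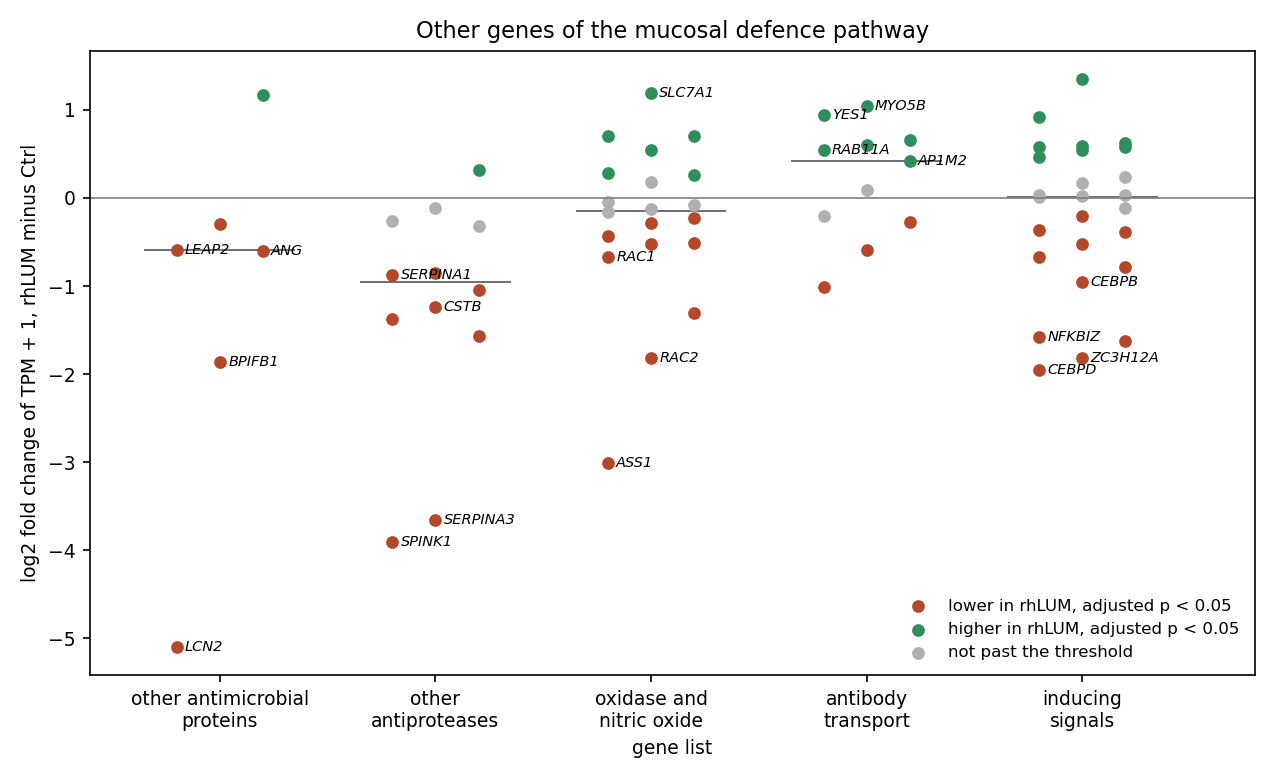
Log2 fold change of TPM + 1 (rhLUM minus Ctrl, vertical axis) of each tested gene of the 5 further lists (horizontal axis), coloured by whether limma's adjusted p was under 0.05, with a bar at each list's median. Medians run between -0.95 for antiproteases and 0.42 for antibody transport.

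The protein-coding genes within 100000 bases of a tested member were looked at after the data were seen. Of 36 that are no members themselves, 11 were tested, 2 were lower and 8 were higher. The shares over all genes tested were 22.3% lower and 44.2% higher. Next to PIGR, FCAMR, a receptor for IgA and IgM, stood at 0.2, 0.2 and 0.14 TPM in rhLUM and 2.49, 2.14 and 2.22 TPM in Ctrl, a log2 fold change of -1.48. The other lower neighbour was DUOX1, and both passed the filter only through Ctrl. Near PIGR, C1orf116 had 0.75, PFKFB2 had 0.30 and YOD1 had 0.29, while FCMR (-0.27) was not called. Both tested neighbours of LYZ rose, CPSF6 with 0.42 and YEATS4 with 0.18. SORD, beside the DUOX genes, had 0.86, SDC4, beside SLPI, had 0.51, and STK4, beside PI3, had 1.03. Neither DEFB1 nor DEFB4A had a tested neighbour within that distance.

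Markers of liver cells were present, 10 of 11 having a mean of at least 1 TPM, and their summed level was 4968 to 5010.4 TPM in rhLUM and 2742 to 2768 TPM in Ctrl. Immune and stromal cells in a xenograft come from the host, while the symbols and the genome named, GRCh38, are human. Low values of human markers therefore do not show that such host cells were absent. Neutrophils carry LTF, and all 10 neutrophil markers had a mean under 1 TPM, with MPO, FCGR3B and CAMP at 0 throughout. Their sum was 0.04 to 0.22 TPM in rhLUM and 0.41 to 1.04 TPM in Ctrl. Macrophages make LYZ, and the sum of 12 macrophage markers was 57.1 to 61.2 TPM in rhLUM and 35.2 to 36.1 TPM in Ctrl. CD68, which other cells also express, accounted for most of it, with 59.37, 59.4 and 55.5 TPM in rhLUM and 34.5, 33.01 and 33.22 TPM in Ctrl. The other 11 were under 1 TPM on average, and MARCO, VSIG4 and C1QA were at 0. Of 6 markers of mucus cells, which can make LYZ, 5 had a mean of at least 1 TPM. Their sum was 1838 to 1899 TPM in rhLUM and 540.03 to 549.9 TPM in Ctrl, most of it from AGR2, and MUC2 was near 0. The part of these markers in the rise of LYZ was not tested. Both Paneth markers, DEFA5 and DEFA6, were at 0 in all libraries. B and plasma cell markers (6 genes, IGHA1 and MS4A1 at 0) summed to 1.36 to 2.87 TPM in rhLUM and 0.47 to 1.5 TPM in Ctrl. T cell markers (4 genes, CD2 at 0) summed to 1.46 to 2.43 TPM in rhLUM and 0.37 to 0.82 TPM in Ctrl. Stromal and endothelial markers (6 genes, none at 0 throughout) summed to 30.03 to 36.3 TPM in rhLUM and 22.3 to 25.1 TPM in Ctrl. PECAM1 made up most of this sum, with 23.0, 24.96 and 27.84 TPM in rhLUM and 16.21, 16.32 and 16.75 TPM in Ctrl. CDH5, an endothelial cadherin, went the other way, with 0.43, 0.41 and 0.51 TPM in rhLUM and 2.71, 3.37 and 3.21 TPM in Ctrl.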

How the data were processed

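RNA of 6 MHCC97L xenograft libraries (3 rhLUM, 3 Ctrl, grouped by title) was poly-A selected and sequenced as paired reads of 151 bases, per the labels' protocols. The authors deposited TPM per gene symbol, 1 table per library with 60725 rows, per the file headers. STAR 2.7.8, RSEM 1.2.31 and GRCh38 are named in the submitters' processing notes. The sources used here do not state the annotation, strand setting or any removal of host reads, so host or antisense reads can add to a value. Depth is unknown and no counting interval is given. No batch is labelled.

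Rows that share a symbol were summed (2210 rows under 313 symbols, none a member). Genes averaging 1 TPM or more over the 6 libraries were fitted as log2(TPM + 1) in limma 3.58.1 (R 4.3.3) with its variance trend and group as the only term, two-sided, Benjamini-Hochberg adjusted over all 14878 genes, after the fit was tested on simulated data. An exact permutation test of 3 against 3 reaches p = 0.1 at best and was not used. Alternatives were median-of-ratios scaling, rescaling without mitochondrial genes, a pseudocount of 0.1, no filter, a replicate block, shared symbols left out, no trend, and leaving out each library.

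The members and lists were chosen with earlier results of these data known. Of each list, up to 4 genes past the threshold with the smallest p and groups that did not overlap are named, and for each tested member the 1 gene of closest profile, clones and pseudogenes left out. Other named genes were chosen after their values were seen. Positions are from GENCODE 29 and promoters from RefSeq (GRCh38.p14), where PIGR, LTF, DUOX2 and DUOXA2 were matched (4 of 10) and LTF is not shown. Python 3.11.15 and matplotlib 3.10.9 were used.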

Additional observations from a re-analysis of the deposited data

How the results depend on the processing

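The counts of 7 members lower and 1 higher were the same under every alternative run, and each member above 0 in every library kept its direction and stayed past the threshold. Log2 fold changes ranged from -3.00 to -2.76 for SLPI, -2.85 to -2.59 for DUOX2, -2.86 to -2.67 for DUOXA2, -2.41 to -2.19 for PIGR, -2.24 to -1.42 for PI3, -1.77 to -1.57 for DEFB1 and 0.25 to 0.42 for LYZ, with adjusted p up to 0.00486, for PI3. Of all calls, 66.5% were higher as deposited and 52.7% after median-of-ratios scaling (5089 higher, 4570 lower). Other antimicrobial proteins called higher numbered 1 as deposited, 4 with no filter on low values, where more genes were tested, and 0 to 1 on leaving out each library. Counts of the other lists stayed within 1.5 times. Deviations of same-letter libraries correlated at -0.012 to 0.088 across genes, and those of libraries with different letters at -0.082 to 0.056. With 3 libraries in each group, these values cannot settle whether the letters A, B and C pair the libraries. The replicate block gave 7 members lower and 1 higher, with 3217 genes lower and 6420 higher in all. The depth behind the low values of PI3, LTF and NOS2 is unknown.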
